A study of Homo sapiens with 8 samples.

Results

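The 9 genes followed here belong to the liver's acute phase and complement programme and were measured in 8 RNA sequencing libraries of A549 cells, a human lung adenocarcinoma line. They are the fibrinogen chains FGA, FGB and FGG, the protease inhibitors SERPINA1 and SERPINA3, the complement proteins C3 and CFB, haptoglobin (HP) and the lipopolysaccharide-binding protein LBP. They were picked by symbol and make up 9 of the 58302 genes in the deposited tables. The libraries formed 4 groups of 2 cultures: A549 with a control short hairpin RNA (shRNA), A549 with an shRNA against the receptor kinase AXL, A549 labelled only as control, and A549 given TP-0903, an AXL inhibitor, at 40 nM. All cells grew in F12K medium with serum. A P number in each label (15 or 3 for both hairpin groups, 17 or 4 for control and TP-0903) is not explained in the sources used here, and neither are the hairpin sequences, what the control cells received, or the time of exposure. The labels call the cultures biological replicates and name no separate donor, so p-values measure the spread between cultures of 1 cell line. The series was set up to look for pathways of resistance to TP-0903.

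Fibrinogen is a plasma protein built from an alpha, a beta and a gamma chain, encoded by FGA, FGB and FGG, which thrombin turns into the fibrin of a clot. Hepatocytes secrete it together with the protease inhibitors alpha-1-antitrypsin (SERPINA1) and alpha-1-antichymotrypsin (SERPINA3), the complement proteins C3 and factor B (CFB), haptoglobin and LBP, and their output rises in inflammation, the acute phase response. Interleukin-6 family cytokines drive much of it through the shared receptor chain IL6ST and the transcription factor STAT3, while interleukin-1 acts through NF-kB and C/EBP factors. Lung epithelial cells also express several of these genes.

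The 3 fibrinogen genes lie side by side on chromosome 4 (GRCh38, GENCODE 29 positions), in a stretch of 50012 bases from 154562956 to 154612967. FGB (ENSG00000171564, 154562956 to 154571086) is on the plus strand, and FGA (ENSG00000171560, 154583126 to 154590766) and FGG (ENSG00000171557, 154604134 to 154612967) are on the minus strand. Because the 3 genes moved together in these cultures, their upstream sequences are shown, with SERPINA3 for contrast. RefSeq (GRCh38.p14) windows were found for 6 of the 9 members, with none for C3, HP or LBP. Each window is the 250 bases before the RefSeq start, printed 5′ to 3′ on the gene's strand. The FGA window is chr4:154590743-154590992 (minus strand), the FGB window is chr4:154562730-154562979 (plus strand) and the SERPINA3 window is chr14:94612141-94612390 (plus strand). For FGG only the 30 bases around each interleukin-6 element are given, chr4:154612800-154612829 and chr4:154612681-154612710 (minus strand), because some GENCODE transcripts place untranslated exon there. Capitals mark matches to the motifs searched, and in the FGG stretches the CTGGGA element alone.
FGA: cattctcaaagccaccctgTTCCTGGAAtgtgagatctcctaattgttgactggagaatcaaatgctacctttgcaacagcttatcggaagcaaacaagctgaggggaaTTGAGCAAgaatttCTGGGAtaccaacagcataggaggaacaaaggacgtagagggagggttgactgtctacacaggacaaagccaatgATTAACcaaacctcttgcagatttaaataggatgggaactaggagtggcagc
FGB: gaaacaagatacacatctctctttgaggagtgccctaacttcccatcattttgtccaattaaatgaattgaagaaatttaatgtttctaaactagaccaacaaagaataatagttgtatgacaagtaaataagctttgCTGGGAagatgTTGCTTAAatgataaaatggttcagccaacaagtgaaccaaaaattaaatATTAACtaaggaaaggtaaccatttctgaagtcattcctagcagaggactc
FGG, far element: tgtgtgcaaaatCTGGGAacctgacagtat
FGG, near element: cagtcctggctaTCCCAGgagcttacataa
SERPINA3: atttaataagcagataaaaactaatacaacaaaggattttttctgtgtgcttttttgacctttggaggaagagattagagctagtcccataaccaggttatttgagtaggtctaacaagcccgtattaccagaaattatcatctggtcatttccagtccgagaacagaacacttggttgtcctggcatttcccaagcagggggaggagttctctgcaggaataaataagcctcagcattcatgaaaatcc

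On both strands, the search looked for the STAT motif TTCNNNGAA, the type II interleukin-6 element CTGGGA, the C/EBP motifs TTGCNNAA and TTACNNAA, the motif GTTAAT, common in liver promoters, and an NF-kB motif. Among 35116 RefSeq windows of the same length, 6.57% held the STAT motif, 28.7% CTGGGA, 9.05% and 7.42% the C/EBP forms, 6.23% GTTAAT and 5.67% the NF-kB motif. Positions count back from the start, so that -1 is the last base of the window. CTGGGA occurred in all 3 fibrinogen windows, first base at -127 in FGA, at -112 in FGB, and at -161 and -42 in FGG, where the near match is on the other strand. FGA and FGB each held GTTAAT on the opposite strand, read as ATTAAC, from -52 and -51, and a C/EBP match from -141 and -101. FGG had a C/EBP match of the other form from -32. A STAT motif match was found in FGA from -231 and in CFB from -92. SERPINA1 held none at its first RefSeq start and CTGGGA, a C/EBP and a GTTAAT match at its second. The SERPINA3 window held none of these letters, and no 2 matches overlapped in the member windows. These are letter matches in 1 window per start, and nothing here measured binding.

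Library totals ran from 30067011 to 44217023 expected counts. Levels are in CPM (counts divided by the scaled library total), and levels of different genes are compared only in TPM, which allows for transcript length. Of the 9 members, 8 passed the filter on low counts and were among the 17676 genes tested with edgeR's quasi-likelihood test, and HP did not pass. Changes are log2 fold changes with their standard error (SE), p-values were adjusted over all tested genes, and a gene was called at an adjusted p under 0.05. The fit that ignores P numbers is named unpaired. The fit that compares libraries of the same P number is named paired. No label says that an equal P number marks a shared culture or day. The pairing rests on libraries of equal number deviating together, over 2 numbers in each comparison, and paired p-values hold only as far as it does. AXL, the check of the hairpin, was at 65.1% (P15) and 45.1% (P3) of its control in the AXL shRNA cultures (log2 fold change -0.92, adjusted p = 0.12 unpaired, and -0.89, adjusted p = 8.58e-04 paired), and at 129% (P17) and 147% (P4) with TP-0903 (0.43, adjusted p = 0.544 unpaired, and 0.46, adjusted p = 0.0354 paired). The markers of A549's epithelial type were present in every library: KRT7, KRT8, KRT18, KRT19, EPCAM and CDH1 all had at least 10 counts. Of 15 hepatocyte markers, 0 to 5 reached 10 counts in a library and their summed level was 0.86 to 11.8 TPM, so most of these markers were low. Of other liver-type genes, 13 of 23 other positive acute phase and 24 of 41 other complement genes passed the filter. The clotting factor F9 had 0 counts in all 8 libraries.

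Fibrinogen and C3 were the abundant members. In control shRNA cultures the mean level was 214 ± 76.1 TPM for FGA, 194 ± 96.1 for FGG, 181 ± 84.9 for FGB and 161 ± 120 for C3 (SD, n = 2), which do not differ beyond their spread. CFB followed at 18.5 ± 13.9 TPM and SERPINA3 at 14.6 ± 5.21, also within their spread, then SERPINA1 at 2.92 ± 0.191, LBP at 1.41 in both libraries and HP at 0.205 ± 0.0495 TPM. In control cultures C3 stood first at 89.1 ± 27.0 TPM, above FGB at 58.6 ± 49.5, FGA at 56.7 ± 57.7 and FGG at 49.8 ± 48.3, and these ranges overlapped. SERPINA3 (5.83 ± 0.990) and CFB (5.39 ± 1.24) came next. LBP (0.585 ± 0.573), SERPINA1 (0.300 ± 0.339) and HP (0.240 ± 0.170) were below 1 TPM there.

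All 3 fibrinogen chains were lower with AXL shRNA and lower with TP-0903 in every culture when set against the control of the same P number. With control shRNA FGA, the alpha chain, reached 383 CPM at P15 and 245 CPM at P3. The AXL shRNA cultures had 64.7 and 35.8 CPM. It was 23.7 CPM at P17 and 144 CPM at P4 in control cells, against 7.50 and 40.4 CPM with the drug. The hairpin libraries of FGA did not overlap, while TP-0903 at P4 lay above the control at P17. In bulk RNA, fewer expressing cells and less RNA per cell cannot be told apart.

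FGB, the beta chain, dropped from 259 to 123 CPM at P15 and from 140 to 42.2 CPM at P3 under the AXL hairpin. Control cells held 26.6 and 103 CPM of FGB (P17, P4), and treated cells 4.04 and 20.5 CPM. For this chain both treatments gave libraries that lay entirely below their controls. FGG, the gamma chain, went from 247 and 127 CPM to 87.0 and 38.0 CPM with AXL shRNA, again with no overlap. With TP-0903 it went from 15.2 and 81.5 CPM (P17, P4) to 3.36 and 27.0 CPM, where the treated P4 library exceeded the control P17 library.

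**Figure D1:**
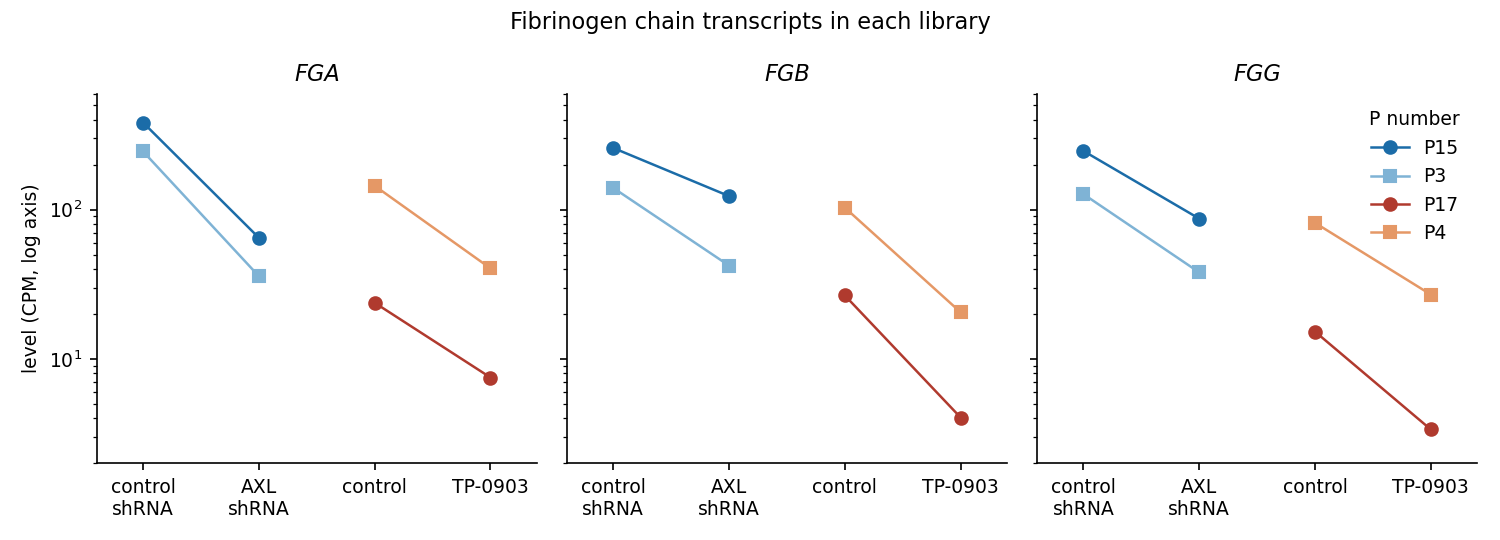
Level of FGA, FGB and FGG in each of the 8 libraries in CPM on a log axis; lines join a control library with the treated library of the same P number (P15 and P3 for the hairpins, P17 and P4 for the drug). Each of the 12 lines runs downward, and the control at P17 starts far below the control at P4.

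Relative to the control of the same P number, AXL shRNA left FGA at 16.9% (P15) and 14.6% (P3), FGB at 47.6% and 30.2%, and FGG at 35.2% and 29.9% in CPM. TP-0903 left FGA at 31.6% (P17) and 28.0% (P4), FGB at 15.2% and 19.9%, and FGG at 22.1% and 33.1%. The alpha chain thus kept the smallest share with the hairpin and the beta chain with the drug. In the paired fit the log2 fold change of FGA with AXL shRNA was -2.67 (SE 0.11, adjusted p = 5.63e-06), that of FGB -1.40 (SE 0.16, adjusted p = 1.88e-04) and that of FGG -1.62 (SE 0.14, adjusted p = 4.38e-05). With TP-0903 the paired values were -1.76 for FGA (SE 0.11, adjusted p = 2.06e-05), -2.49 for FGB (SE 0.18, adjusted p = 3.45e-05) and -1.83 for FGG (SE 0.15, adjusted p = 8.30e-05). All 6 falls were called in each of the 15 paired fits run per comparison, those without each library included.

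The unpaired fit called none of these 6 falls. Its values were -2.64 (SE 0.97, adjusted p = 0.0676), -1.27 (SE 0.88, adjusted p = 0.291) and -1.58 (SE 1.01, adjusted p = 0.255) for FGA, FGB and FGG with AXL shRNA. With TP-0903 they were -1.81 (SE 0.95, adjusted p = 0.262), -2.40 (SE 0.93, adjusted p = 0.142) and -1.67 (SE 1.03, adjusted p = 0.339). FGA with AXL shRNA did pass in the 4 hairpin libraries alone (adjusted p = 0.00971), with DESeq2 (0.0407), and without any 1 of the control or TP-0903 libraries (0.0367 to 0.0445). The sizes of both fits are close and the SE differs, because the libraries of a group lay far apart. Without the control at P4, the unpaired drug values came to 0.033 for FGA, -1.09 for FGB and 0.016 for FGG, and without TP-0903 at P4 to -3.47, -3.99 and -3.83, so single libraries decide the unpaired values.

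The test of the difference between the drug effect and the hairpin effect separated the chains in the paired fit. It was 0.91 for FGA (SE 0.15, adjusted p = 0.00248), -1.10 for FGB (SE 0.24, adjusted p = 0.00764) and -0.20 for FGG (SE 0.20, adjusted p = 0.461). FGA therefore fell less with TP-0903 than with AXL shRNA, and FGB fell more. Unpaired, these differences were 0.83 (adjusted p = 0.688), -1.13 (adjusted p = 0.56) and -0.088 (adjusted p = 0.974). Without TP-0903 at P17 the paired value of FGB was -0.92 (adjusted p = 0.0756).

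The balance of the alpha to the beta chain, as a ratio of TPM, showed the same split. The ratio of FGA to FGB was 1.11 in the P15 and 1.33 in the P3 culture carrying the control hairpin, against 0.408 and 0.675 under the AXL hairpin. It was 0.672 (P17) and 1.04 (P4) in control cells and 1.41 and 1.55 with TP-0903. In both comparisons the treated and control libraries did not overlap, downward with the hairpin and upward with the drug. The mean log2 ratio changed by -1.21 and by 0.82, each with an exact permutation p of 0.333 (two-sided), the smallest that 2 against 2 libraries allow. The ratio of FGB to FGG ran from 0.654 to 1.51. It also did not overlap in either comparison, higher with the hairpin and lower with the drug, with differences of 0.25 and -0.65 in mean log2 (exact permutation p = 0.333 each).

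**Figure D2:**
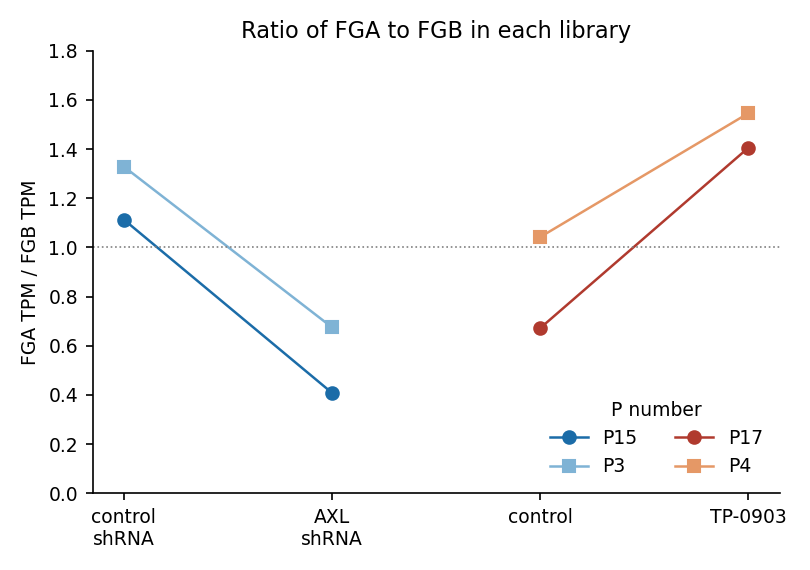
Ratio of FGA to FGB in TPM in each library (vertical axis, no unit) by group, with lines joining libraries of the same P number and a dotted line at 1. The ratio drops from 1.11 and 1.33 to 0.408 and 0.675 with AXL shRNA, and climbs from 0.672 and 1.04 to 1.41 and 1.55 with TP-0903.

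Within 500 kb of the cluster lie 4 other protein-coding genes, of which DCHS2 and RBM46 were too low to test. PLRG1, a spliceosome component, was -0.39 with AXL shRNA (adjusted p = 0.0297) and -0.13 with TP-0903 (adjusted p = 0.49). LRAT, which esterifies retinol, was at 0.71 (adjusted p = 0.363) and -0.90 (adjusted p = 0.517), all unpaired.

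SERPINA3 moved in opposite directions with the 2 treatments. The inhibitor, which blocks cathepsin G and chymase, went from 16.3 to 39.8 CPM at P15 and from 10.5 to 68.5 CPM at P3 under the AXL hairpin. In control cells it was at 4.81 (P17) and 6.25 CPM (P4), and with TP-0903 at 1.14 and 1.41 CPM. Neither comparison had overlapping libraries. SERPINA3 (ENSG00000196136, chromosome 14, 94612377 to 94624055, plus strand) rose with AXL shRNA by 2.01 (SE 0.32, adjusted p = 0.00332, unpaired) and fell with the drug by 2.11 on the log2 scale (SE 0.36, adjusted p = 0.0116, unpaired). The difference of the effects was -4.13 (SE 0.48, adjusted p = 0.00234), or 17.5-fold, and it was called in every alternative run for it. The fall with the drug lost its call unpaired without TP-0903 at P17 (adjusted p = 0.103), without TP-0903 at P4 (0.0508) and without the control at P4 (0.0583), with limma-voom (0.0720), and paired without TP-0903 at P17 (0.0748). The annotation overlaps it with AL049839.2 on the same strand, and adding that gene's counts gave 2.01 and -2.10.

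SERPINA3 was the member called in each unpaired treatment contrast: 1 of 8 higher with AXL shRNA, where 18.5% of all tested genes were called higher and 19% lower (49.4% of the calls higher, against 31.3% by limma on log2(TPM + 1), which moves the median gene to -0.15), and 1 of 8 lower with TP-0903, where 4.9% were called higher and 6.35% lower. It was also the 1 member whose 2 effects differed unpaired (lower, against 10.8% of all genes). In the paired fit AXL shRNA had 3 members higher (SERPINA3, C3 and LBP) and 3 lower (the fibrinogen chains), against 25.6% and 26.1% of all genes. TP-0903 had 5 members lower (the fibrinogen chains, SERPINA3 and LBP), against 13.4% of genes lower and 12.9% higher. The paired difference of effects was called for FGA upward (18.6% of all genes) and for FGB, LBP, C3 and SERPINA3 downward (18.4%). The hairpin counts of so few members are close to these shares, and the 5 paired falls with the drug lie above theirs. Those 5 include the 3 fibrinogen chains, which moved together over the libraries (Pearson r from 0.937 to 0.983) and are not separate counts. The excess depends on the pairing, as SERPINA3 alone was called unpaired. Counting libraries alone, 3 of 8 members lay wholly above control shRNA with AXL shRNA (34.4% of all genes) and 3 wholly below (35.5%). With TP-0903, 2 lay wholly below control (30.9%). Read against the control of the same P number, 3 of 8 were lower in both AXL shRNA cultures (42.1% of all genes) and 5 of 8 in both TP-0903 cultures (39.9%). Over the 8 members the median paired log2 fold change was 0.14 with AXL shRNA and -1.79 with TP-0903, beside -0.012 and -0.013 over all tested genes.

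**Figure D3:**
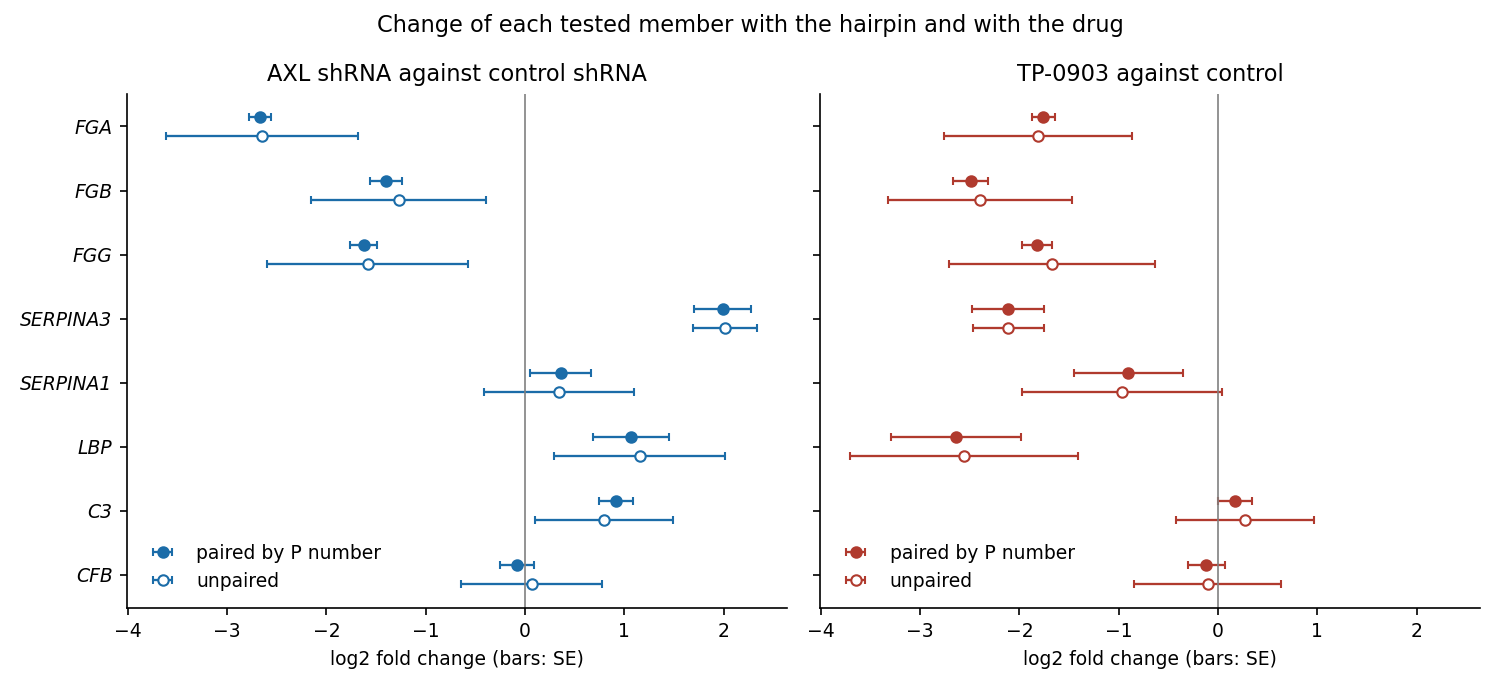
Log2 fold change (horizontal axis, bars are the SE) of the 8 tested members with AXL shRNA (left) and TP-0903 (right), filled points paired by P number and open points unpaired. FGA, FGB and FGG lie left of 0 in both panels, and SERPINA3 lies at about 2 on the left and -2.1 on the right.

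SERPINA1, the inhibitor of neutrophil elastase, was low throughout, with 92 and 65 counts in control shRNA, 95 and 131 in AXL shRNA, 2 and 26 in control and 2 and 10 in TP-0903 libraries. Its level was 2.83 and 1.95 CPM (P15, P3), 2.87 and 3.18 CPM, 0.054 and 0.644 CPM (P17, P4), and 0.062 and 0.293 CPM in the same order. It passed in no treatment contrast: 0.34 with AXL shRNA (adjusted p = 0.748) and -0.97 with TP-0903 (adjusted p = 0.583), and paired 0.36 (adjusted p = 0.356) and -0.90 (adjusted p = 0.263). The drug value of SERPINA1 turned to 0.22 with effective lengths as offsets, so no direction is read from it. The other genes of its serpin cluster were mostly silent: 2 of 10 could be tested, and SERPINA5, the protein C inhibitor, fell with AXL shRNA by 3.33 on the log2 scale (adjusted p = 0.00985).

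LBP hands bacterial lipopolysaccharide to CD14. Its level was 1.63 CPM at P15 and 1.77 CPM at P3 under the control hairpin, below the 5.13 and 2.45 CPM under the AXL hairpin. In control cells it had 0.216 and 1.21 CPM (P17, P4). With TP-0903 it had 0 counts at P17, which allows up to 0.0926 CPM (3 counts, counting error only), and 8 counts or 0.234 CPM at P4. In the paired fit LBP was called in both contrasts: 1.07 with AXL shRNA (SE 0.38, adjusted p = 0.0434) and -2.64 with TP-0903 (SE 0.66, adjusted p = 0.0191), a difference of -3.71 (SE 0.76, adjusted p = 0.00596). Unpaired, LBP stood at 1.15 (adjusted p = 0.325) and -2.56 (adjusted p = 0.194), and its difference of -3.71 (adjusted p = 0.108) passed with DESeq2 (0.0288). The paired LBP call for the hairpin held in 9 of 15 fits. It was lost without AXL shRNA P15 (0.47), control shRNA P15 (0.46) or TP-0903 P17 (1.06), and with DESeq2 (1.09), effective lengths (1.07) or log2(TPM + 1) (0.55). For the drug it held in 10 of 15 fits. It was lost without TP-0903 P17 (-2.35) or P4 (-5.97), without control P17 (-2.35) or P4 (-5.93), and on log2(TPM + 1) (-0.49), with adjusted p from 0.0693 to 0.178.

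HP, the haemoglobin scavenger, had 5 and 5 counts with control shRNA (P15, P3), 1 and 1 with AXL shRNA, 1 and 11 in control cells (P17, P4) and 0 and 2 with TP-0903. No fold is given at these counts. The gene lies on chromosome 16, 72054592 to 72061055, within TXNL4B on the opposite strand, and no source used here gives the strand of the reads.

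C3 is the protein on which all complement pathways converge. Under the control hairpin it reached 519 CPM at P15 and 152 CPM at P3, and under the AXL hairpin 823 and 344 CPM. It was at 245 (P17) and 144 CPM (P4) in control cells, and at 338 and 132 CPM with TP-0903. The AXL shRNA level was 159% and 226% of the control library of its P number, and the drug level 138% and 91.3%. C3 (ENSG00000125730, chromosome 19, 6677704 to 6730562, minus strand) rose with AXL shRNA in the paired fit by 0.92 (SE 0.17, adjusted p = 0.00215). Unpaired the value was 0.80 (SE 0.70, adjusted p = 0.4), and with the drug it was 0.27 (adjusted p = 0.841) and 0.17 paired (adjusted p = 0.505). The paired difference of effects, -0.75 (SE 0.24, adjusted p = 0.0373), was called in 9 of 15 fits. It lost its call with effective lengths (-0.82), on log2(TPM + 1) (-0.60), and without AXL shRNA P3 (-0.50), control shRNA P3 (-0.49), TP-0903 P4 (-0.43) or control P4 (-0.43).

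CFB, the protease component of the alternative pathway convertase, had 34.2 CPM at P15 and 10.9 CPM at P3 under the control hairpin, and 38.9 and 8.39 CPM under the AXL hairpin. It had 6.55 and 6.20 CPM (P17, P4) in control cells and 6.88 and 4.98 CPM with TP-0903. The P15 libraries of both hairpin groups stood above all others. No treatment contrast called it, unpaired (0.067, adjusted p = 0.948; -0.10, adjusted p = 0.948) or paired (-0.079, adjusted p = 0.726; -0.12, adjusted p = 0.684). These CFB values flip sign under other settings, TPM among them, and no direction is read from them. The effective length of CFB ran from 1149 to 2035 bases between libraries, and its part in this was not tested. The annotated gene AL645922.1 shares 6399 bases with CFB on the same strand.

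**Figure D4:**
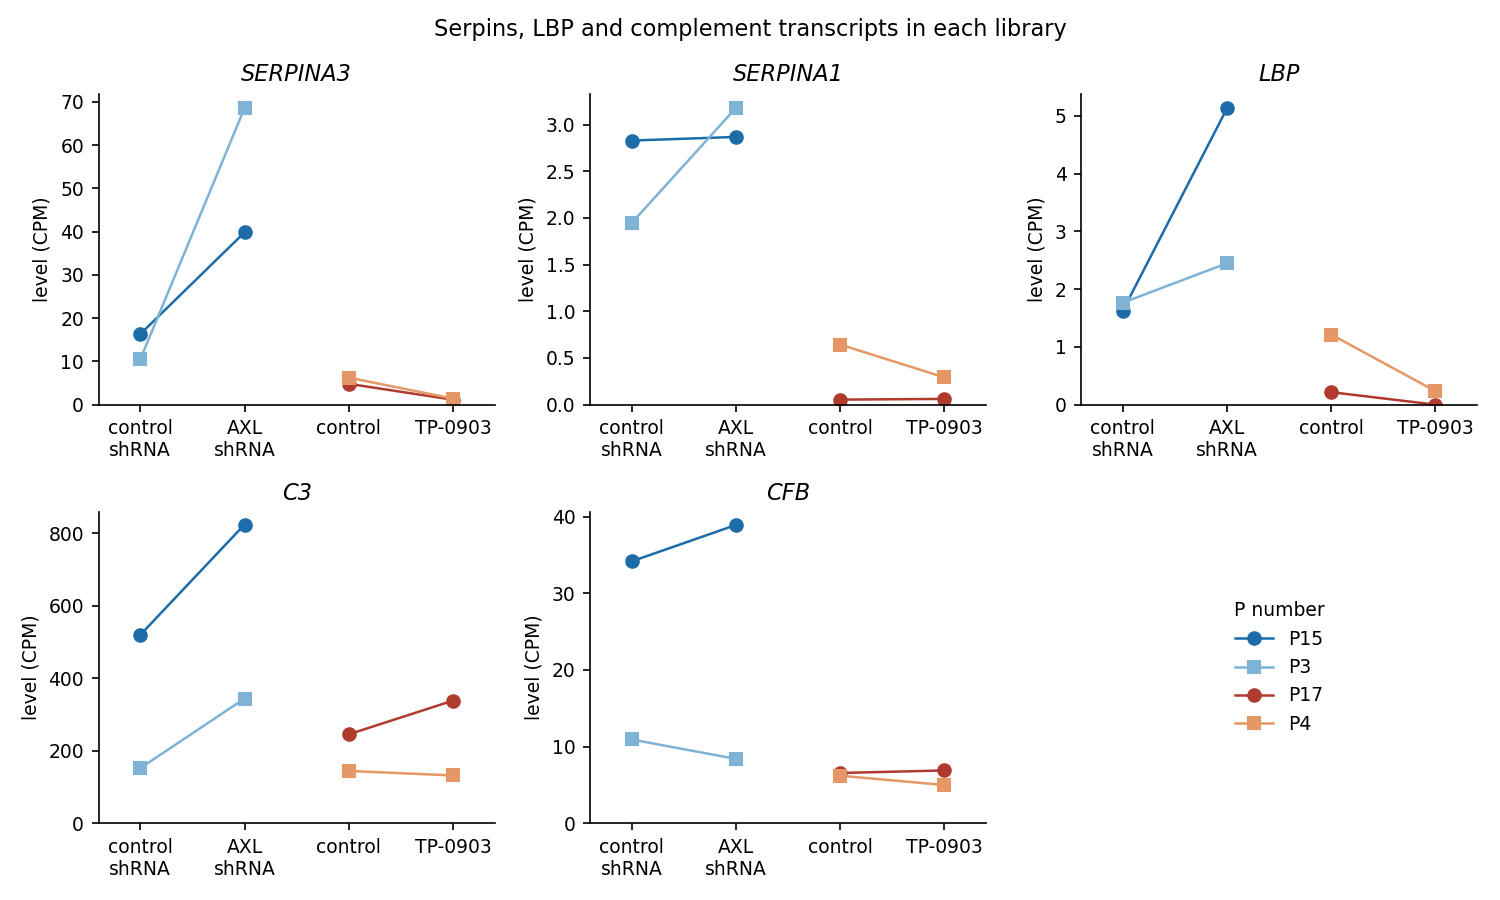
Level in CPM (linear axes from 0) of SERPINA3, SERPINA1, LBP, C3 and CFB in each library, with lines joining libraries of the same P number. SERPINA3 climbs to 39.8 and 68.5 CPM with AXL shRNA and drops to 1.14 and 1.41 CPM with TP-0903, and C3 is highest in the P15 libraries.

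The P number separated several members, and for fibrinogen the direction was opposite in the hairpin and the other libraries. With all groups fitted together, C3 was the 1 member of 8 higher at the larger P number (P15 and P17 over P3 and P4), by 1.29 (SE 0.15, adjusted p = 0.00787), against 2.24% of all genes. Fibrinogen values in that fit were -0.83 (FGA), -0.37 (FGB) and -0.68 (FGG), with adjusted p from 0.587 to 0.85. Fitted apart, a comparison added after the data were seen, P15 exceeded P3 in 5 of 8 members (3.71% of all genes): FGA by 0.75 (SE 0.11, adjusted p = 0.00677), FGB by 1.21 (SE 0.16, adjusted p = 0.00497), FGG by 1.08 (SE 0.14, adjusted p = 0.00407), C3 by 1.52 (SE 0.17, adjusted p = 0.0027) and CFB by 1.93 (SE 0.18, adjusted p = 0.00136). P17 was below P4 in 4 of 8 members (2.37% of all genes): FGA by -2.52 (SE 0.12, adjusted p = 9.0e-05), FGB by -2.11 (SE 0.18, adjusted p = 0.00106), FGG by -2.66 (SE 0.15, adjusted p = 1.87e-04) and SERPINA1 by -2.95 (SE 0.62, adjusted p = 0.0359). C3 was the 1 member higher at P17, by 1.06 (SE 0.17, adjusted p = 0.0138), against 1.8% of genes. Each P number has a single control and a single treated library. The SE and p-values of the contrasts fitted apart thus measure the spread left after treatment and P number are fitted. They do not measure the spread between cultures of equal P number and treatment.

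In levels, control cells at P4 held 6.08-fold more FGA, 3.88-fold more FGB and 5.35-fold more FGG than at P17, and TP-0903 cells 5.39-fold, 5.07-fold and 8.02-fold more. The hairpin groups ran the other way, with P15 over P3 at 1.56-fold, 1.85-fold and 1.95-fold with control shRNA and 1.81-fold, 2.92-fold and 2.29-fold with AXL shRNA. The difference between both P number effects was called in 4 of 8 members, all upward (0.945% of all genes): FGA 3.27 (SE 0.16, adjusted p = 2.32e-04), FGB 3.33 (SE 0.24, adjusted p = 9.65e-04), FGG 3.74 (SE 0.21, adjusted p = 3.61e-04) and CFB 1.66 (SE 0.26, adjusted p = 0.0266). CFB kept this call in 10 of 15 fits and lost it without control P17 (1.46), control P4 (1.46) or TP-0903 P17 (1.85), with effective lengths (1.59) and on log2(TPM + 1) (1.53). As above, these p-values do not measure the spread between cultures of equal P number and treatment. P numbers and hairpin differ together between these sets of libraries, so their parts cannot be told apart.

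**Figure D5:**
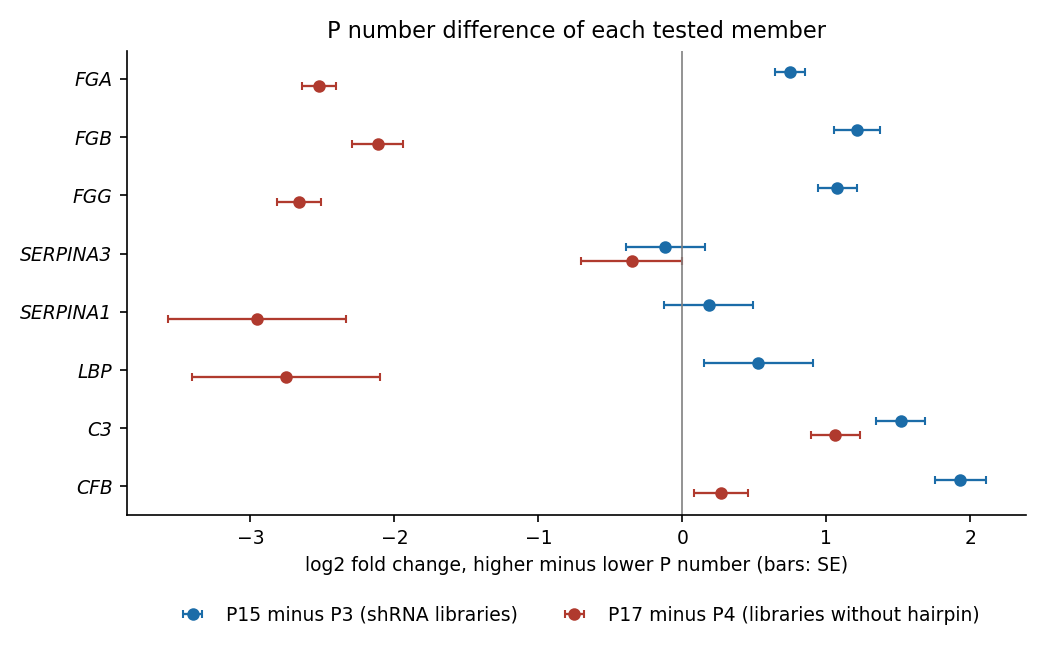
Log2 fold change between the higher and the lower P number (horizontal axis, bars are the SE) of the 8 tested members, P15 minus P3 in the hairpin libraries and P17 minus P4 in the libraries without hairpin, from the paired fit. The fibrinogen points lie at 0.75 to 1.21 for the first and at -2.66 to -2.11 for the second, while C3 is above 0 in both. The bars do not cover the spread between cultures of equal P number and treatment.

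In control shRNA against plain control cultures the median log2 fold change was 1.72 over the 8 tested members and 0.019 over all tested genes. Other lists had raised medians too, among them negative acute phase genes (2.27), hepatocyte markers (2.20) and other complement genes (1.08). Those of epithelial (-0.50) and fibroblast markers (-0.19) were below 0. By edgeR 0 of 8 members passed (9.15% of all genes did). An unadjusted p under 0.05 was found for 3, DESeq2 called 2, limma on log2(TPM + 1) called 1 and limma-voom 0. For these last counts no share over all genes is given here. The 3 with an unadjusted p under 0.05 were SERPINA1 (2.74, SE 0.86, adjusted p = 0.0908), SERPINA3 (1.28, SE 0.32, adjusted p = 0.0512) and CFB (1.82, SE 0.74, adjusted p = 0.166). The fibrinogen chains stood at 1.90, 1.62 and 1.95 (FGA, FGB, FGG), with adjusted p from 0.242 to 0.286. These groups share no P number.

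Other acute phase genes were described from lists written with earlier results of these data known. Of 23 other positive acute phase genes 13 could be tested, and with AXL shRNA 3 fell and none rose unpaired (19% of all genes fell), while 4 fell and 2 rose (FN1 and LRG1) paired (26.1% and 25.6% of all genes). The 3 were FGL1, a fibrinogen-like liver protein, at -2.13 (adjusted p = 0.0477), CD14 at -1.27 (adjusted p = 0.0309) and the haem carrier HPX at -2.49 (adjusted p = 0.0106). FGL1 went from 147 to 41.3 CPM (P15) and from 77.7 to 10.3 CPM (P3) under the AXL hairpin. It was at 14.4 and 26.4 CPM in control cells (P17, P4) and 2.96 and 7.18 CPM with the drug. With TP-0903 none of the 13 passed unpaired (4.9% of all genes rose and 6.35% fell). Paired, 5 fell and none rose with TP-0903 (13.4% of all genes fell and 12.9% rose). The 5 were FGL1 at -2.05 (adjusted p = 6.76e-04), CD14 at -1.08 (adjusted p = 0.0168), ceruloplasmin (CP) at -1.48, SERPINF2 at -0.94 and LRG1 at -3.69. HPX, FN1, CP, SERPINF2, LRG1 and CFD were named after their values were seen. The list's median was -0.12 with AXL shRNA and -0.94 with TP-0903, unpaired, beside -0.013 and -0.015 over all tested genes. Of 8 negative acute phase genes, which the liver lowers in inflammation, 6 were tested and 1 passed: RBP4, the retinol carrier, fell with AXL shRNA by 1.84 (adjusted p = 0.0438) and stood at -0.49 with TP-0903 (adjusted p = 0.643).

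Of 41 other complement genes 24 could be tested. With AXL shRNA 2 rose, clusterin (CLU) by 1.55 (adjusted p = 0.00428) and the complement receptor chain ITGAM by 2.16 (adjusted p = 0.00672). Another 4 fell: the classical pathway proteases C1R (-1.14, adjusted p = 0.00302) and C1RL (-1.63, adjusted p = 0.00256), C4A (-2.31, adjusted p = 0.00815) and factor D, CFD (-2.37, adjusted p = 0.0384). C4A is nearly identical to C4B, and reads may be split between them. Unpaired, 18.5% of all genes rose and 19% fell with AXL shRNA. In the paired fit 5 of the 24 rose and 11 fell with AXL shRNA (25.6% and 26.1% of all genes). With TP-0903 none of the 24 passed unpaired (4.9% of all genes rose and 6.35% fell). Paired, 4 rose and 4 fell with TP-0903 (12.9% and 13.4% of all genes). The terminal component C5 is named here because its profile was among the 5 most like fibrinogen, so falls in both contrasts follow from that choice. In the paired fit it was at -1.12 with AXL shRNA (adjusted p = 0.0015) and -1.05 with TP-0903 (adjusted p = 0.00518). Its level went from 413 to 240 CPM (P15) and from 422 to 154 CPM (P3) under the AXL hairpin. It was 140 (P17) and 247 CPM (P4) in control cells, and 53.1 and 150 CPM with the drug. The list's median was -0.11 with AXL shRNA and 0.13 with TP-0903, unpaired.

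Among 25 tested of 35 coagulation and fibrinolysis genes, 7 rose and 5 fell with AXL shRNA, unpaired (18.5% and 19% of all genes). With TP-0903, 3 rose and 1 fell unpaired (4.9% and 6.35% of all genes). The urokinase receptor PLAUR rose in both, by 1.62 (adjusted p = 0.00118) and 0.83 (adjusted p = 0.0341), and so did SERPINE2, by 1.23 (adjusted p = 0.0187) and 1.38 (adjusted p = 0.0321). The tissue plasminogen activator PLAT rose with AXL shRNA by 2.45 (adjusted p = 0.00152), and thrombomodulin (THBD) by 1.21 (adjusted p = 0.00144). Factor VII (F7), another liver product, fell in both, at -2.57 (adjusted p = 0.0262) and -4.41 (adjusted p = 0.0399), with levels of 0.0293 to 3.86 CPM. Factor VIII (F8) fell by 1.18 (adjusted p = 0.00341) and the tissue factor pathway inhibitor TFPI fell by 1.03 (adjusted p = 0.00656) with AXL shRNA. The list's median was -0.14 and -0.009 in the 2 contrasts.

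Of the genes upstream of the acute phase response, STAT3 transcripts were higher in both treatment contrasts, and STAT3 activity was not measured. STAT3 rose with AXL shRNA by 1.33 (adjusted p = 0.00118) and with TP-0903 by 0.96 (adjusted p = 0.01), from 307 and 241 CPM to 728 and 647 CPM and from 319 and 284 CPM to 620 and 555 CPM. The STAT3 list of 12 genes had 4 rises and 1 fall with AXL shRNA, unpaired (18.5% and 19% of all genes). With the drug it had 2 rises (STAT3, JAK1) and 1 fall (BCL3), against 4.9% and 6.35% of all genes. The list's medians were 0.27 and 0.084. SOCS3, a feedback target of STAT3, was at 0.29 (adjusted p = 0.455) and -0.41 (adjusted p = 0.396, and 0.0384 paired). The interleukin-6 receptor IL6R rose with AXL shRNA by 2.84 (adjusted p = 2.82e-04) and was at 0.32 with TP-0903 (adjusted p = 0.2). IL6ST stood at -0.074 (adjusted p = 0.73) and 0.11 (adjusted p = 0.7). IL6 itself was at 0.15 to 1.88 CPM in all libraries and was not called unpaired (1.68, adjusted p = 0.212; 1.66, adjusted p = 0.288). Paired it was called with AXL shRNA (1.72, adjusted p = 0.0415) and not with TP-0903 (1.34, adjusted p = 0.135). The oncostatin M receptor OSMR rose in both, by 0.52 (adjusted p = 0.0164) and 0.62 (adjusted p = 0.0222).

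Of 15 tested of 16 cytokine inputs and receptors, 8 rose and 1 fell with AXL shRNA, unpaired (18.5% and 19% of all genes). OSMR was the 1 call with TP-0903, a rise (4.9% of all genes). The list medians were 1.14 and 0.11. With AXL shRNA interleukin-1 beta (IL1B) rose by 3.74 (adjusted p = 0.00328), from 0.22 and 0.60 CPM to 4.92 and 6.04 CPM. LIFR rose by 1.40 (adjusted p = 3.92e-04) with AXL shRNA, while IL11 fell by 2.67 (adjusted p = 0.00379). Of 14 liver transcription factors 4 rose with AXL shRNA (18.5% of all genes) and 1 with TP-0903 (4.9%), with none lower, unpaired. HNF4A stood at 0.52 and -0.065, FOXA1 at 0.98 and -0.15, and FOXA2 at -0.77 and -0.89, none called unpaired. FOXA2, a pioneer factor of liver genes, was called lower in both paired contrasts, by -0.75 (adjusted p = 0.00122) and -0.87 (adjusted p = 0.0017). With AXL shRNA the paired fit also called FOXA1 higher (0.99, adjusted p = 1.11e-04) and HNF4A higher (0.52, adjusted p = 0.00265). Of the 14 factors, 7 rose and 5 fell paired with AXL shRNA (25.6% and 26.1% of all genes). With TP-0903, 1 rose and 3 fell paired (12.9% and 13.4% of all genes). CEBPB was at -0.63 (adjusted p = 0.243, and 0.00283 paired) and 0.10, and CEBPD at 0.24 and -0.34.

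The genes whose profile over the 8 libraries was most like the mean of the 3 fibrinogen chains, among 11309 genes of at least 5 CPM, were TM4SF20 (Pearson r = 0.995), ANG (0.988), DOK4 (0.987), C5 (0.981) and PLA2G4A (0.978), on log2 CPM. TM4SF20 went from 304 to 108 CPM (P15) and from 197 to 59.3 CPM (P3) under the AXL hairpin, and was at 41.5 and 141 CPM in control cells (P17, P4) and 13.6 and 62.2 CPM with TP-0903. Like fibrinogen it was lower in each treated library than in its control, and lower at P17 than at P4. TM4SF20 was picked for this likeness, so the shared pattern is no separate result. On log2(TPM + 1) the first 4 were TM4SF20, ANG, PLA2G4A and C5. The 3 chains correlated with one another at 0.937 to 0.983, and SERPINA3 with FGA at 0.334, with FGB at 0.578, with FGG at 0.535, with SERPINA1 at 0.910 and with LBP at 0.881. The profiles nearest to SERPINA3 were those of CEMIP (0.988) and KATNBL1 (0.977), to C3 UQCRQ (0.971) and MYDGF (0.967), to CFB C21orf91 (0.987) and ARFGEF3 (0.967), to LBP EPS8L3 (0.989) and FXYD2 (0.970), and to SERPINA1 XIAP (0.977) and ZXDB (0.974). These are descriptions over 8 libraries that share groups, P numbers and library depth, and the 2 nearest genes of these 5 members were others on the TPM scale, except EPS8L3.

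Markers of other cell types were compared beside these results. The summed level of the 6 epithelial markers was 6164 to 7365 TPM with control shRNA and 18117 to 20572 TPM with AXL shRNA. It was 8970 to 10094 TPM in control and 11716 to 12284 TPM in TP-0903 libraries. Of the 6, 5 rose with AXL shRNA (18.5% of all genes) and 2 with TP-0903 (4.9%), unpaired. Among them KRT19 rose in both, by 3.45 (adjusted p = 0.00157) and 1.75 (adjusted p = 0.0396). Paired, all 6 rose with AXL shRNA (25.6% of all genes), and 2 rose and 1 fell with TP-0903 (12.9% and 13.4%). EPCAM was lower with TP-0903, going from 7.22 to 3.89 CPM (P17) and from 7.66 to 3.08 CPM (P4). The 15 hepatocyte markers summed to 4.36 to 5.00, 3.09 to 11.8, 0.86 to 2.93 and 1.75 to 1.92 TPM in the same order of groups, and none of the 5 tested was called unpaired. In the paired fit 1 rose and 1 fell with AXL shRNA (25.6% and 26.1% of all genes). TTR, the thyroxine carrier, went from 25 to 153 counts at P15 and from 6 to 18 at P3, and made up 8.81 of the 11.8 TPM. ALB, the plasma albumin, had 50 and 13 counts under the control hairpin, 12 and 0 under the AXL hairpin, 4 and 4 in control and 3 and 0 in TP-0903 libraries. The 6 leukocyte markers summed to 12.3 to 28.5 TPM, with PTPRC at 0 to 2 counts and CD68 at 9.31 to 19.6 TPM. Of the 3 tested, CD79A rose with AXL shRNA, from 11 to 101 counts at P15 and from 7 to 54 at P3 (log2 fold change 2.97, adjusted p = 0.00683), and CD14 fell, as given above. CD79A, TTR and the fall of EPCAM were named after their values were seen. The 6 fibroblast markers summed to 10.7 to 34.2 TPM, and COL1A2 had 0 to 3 counts. With AXL shRNA 2 of 4 tested rose unpaired (18.5% of all genes), COL1A1 by 1.30 (adjusted p = 0.0246) and LUM by 2.04 (adjusted p = 0.0253). The part of these markers in the members' changes was not tested.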

How the data were processed

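RNA was extracted from A549 cultures with a PureLink kit and sequenced from Nextera XT libraries, per the labels' protocols. The authors' deposited files give an expected count, a TPM value and an effective length per gene and library. Both were made by RSEM (version not given in the sources used here) after alignment with STAR 2.5.3a to GRCh38, per the submitters' processing notes and the file headers. The TPM values are scaled by transcript length and library total, as deposited by the authors. All 9 members were matched by symbol, and 58039 of 58302 gene identifiers were found in GENCODE 29.

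Expected counts were rounded, filtered with filterByExpr by group (17676 genes kept) and scaled by TMM. They were tested with edgeR 4.0.16 (R 4.3.3), quasi-likelihood, two-sided, with all 8 libraries and 1 term per group, Benjamini-Hochberg adjustment over all tested genes and a threshold of 0.05. The SE is the log2 fold change divided by the square root of F. The prior degrees of freedom were 3.333. A further fit had the P number in 2 levels, and the paired fit had the P number as a block. Deviations from the group means correlated at 0.559 (control shRNA with AXL shRNA) and 0.626 (control with TP-0903) where groups share numbers, against 0.177 to 0.380 where they share none. On that hint from the data the paired values are given, though no label states what the number means. The script was tested on simulated data. Library totals of 30067011 to 44217023 limit precision mainly for LBP, SERPINA1 and HP; limits for a count of 0 cover counting error only.

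Alternatives were RLE scaling, no filter, effective lengths as offsets, DESeq2 1.42.0, limma-voom and limma 3.58.1 on log2(TPM + 1) and log2(TPM + 0.1), the libraries of a comparison alone, and each library left out. Sums with overlapping genes, the alternatives of the paired fit, and its P number contrasts were added after the data were seen. Members and lists were chosen with earlier results of these data known. Beside the members and the upstream genes, the text names from each list up to 3 called genes per direction and treatment with the smallest p and a mean of at least 1 CPM, with exceptions marked; a few genes under this rule are not reported here. The lists were other positive and negative acute phase, other complement, coagulation and fibrinolysis, serpin cluster, cytokine, STAT3 and liver transcription factor genes, and hepatocyte, epithelial, leukocyte and fibroblast markers.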

Additional observations from a re-analysis of the deposited data

Results flagged for a closer look

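SERPINA3 was singled out because its effects under the 2 treatments differed by a direct test: the TP-0903 effect minus the AXL shRNA effect was -4.13 on the log2 scale (edgeR unpaired, adjusted p = 0.00234), with both AXL shRNA libraries above both control shRNA libraries and both TP-0903 libraries below both controls. The difference between the P15 over P3 effect and the P17 over P4 effect was 3.74 for FGG, 3.27 for FGA, 3.33 for FGB and 1.66 for CFB (edgeR paired, adjusted p = 3.61e-04, 2.32e-04, 9.65e-04 and 0.0266). These p-values do not measure the spread between cultures of equal P number and treatment. For each fibrinogen chain, P15 was above P3 in both hairpin groups, and P17 was below P4 in both groups without a hairpin.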

How the results depend on the processing

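The number of members called depended on the fit, and so did the share of all genes. With AXL shRNA 18.5% of all genes were called higher and 19% lower unpaired, and 25.6% and 26.1% with the replicate block. With TP-0903 these shares were 4.9% and 6.35% unpaired, and 12.9% and 13.4% with the block. For the other settings no share over all genes is given here, so their counts are not read as results about the members. For members changed with AXL shRNA it was 1 unpaired, 2 with the 4 libraries alone, 2 with DESeq2, 6 without the filter and 6 with the replicate block, and 1 to 2 when a library was left out. For members changed with TP-0903 it was 1 unpaired, 0 with limma-voom, 5 without the filter, 5 with the replicate block and 0 to 1 with a library left out. The members that differ between the effects were 1 unpaired, 2 with DESeq2, 4 without the filter, 5 with the block and 1 to 1 with a library left out. The members that differ between control shRNA and control were 0, then 2 with DESeq2, 1 with RLE scaling, 1 with limma on log2(TPM + 0.1), 1 on log2(TPM + 1), 8 without the filter and 0 to 1 with a library left out. The members that differ by P number were 1 in all groups, 5 in the 4 libraries without hairpin alone, 5 in the 4 shRNA libraries alone, 2 with limma-voom and 2 without the filter. In the paired fit, leaving out a library gave 5 to 6 calls for AXL shRNA, 3 to 5 for TP-0903 (3 without TP-0903 P17), 4 to 5 for the difference of effects and 3 to 5 for the difference of P effects. The block added the fibrinogen chains, C3 and LBP for AXL shRNA, the fibrinogen chains and LBP for TP-0903, and FGA, FGB, C3 and LBP for the difference, and changed no other call of a member. The cause was not tested. The fit without the filter gave an adjusted p of 3.00e-54 for FGA with AXL shRNA, and 1.76e-95 paired, and its counts are not relied on.

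Under other settings, directions with a treatment turned for CFB and SERPINA1. The P number effect turned for the fibrinogen chains, LBP and SERPINA1 in the shRNA libraries alone. With a library left out, directions also turned for abundant members, the fibrinogen chains and C3 among them, as given below. CFB with AXL shRNA came to -0.36 on log2(TPM + 0.1), -0.33 on log2(TPM + 1), -0.16 with limma-voom and -0.079 with the block, and paired to 0.0044 with limma-voom. CFB with TP-0903 came to 0.20 with effective lengths, 0.098 and 0.093 on the TPM scales, and paired to 0.14 and 0.093. SERPINA1 with TP-0903 came to 0.22 with effective lengths, 0.31 and 0.062 on the TPM scales, and paired to 0.30 and 0.062. In the 4 shRNA libraries alone the P number effect was 0.74 for FGA, 1.21 for FGB, 1.07 for FGG, 0.52 for LBP and 0.18 for SERPINA1.

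With a library left out, unpaired values with TP-0903 ran from -3.47 to 0.033 for FGA, -3.83 to 0.016 for FGG, -0.56 to 0.81 for C3, -0.35 to 0.13 for CFB and -2.44 to 1.68 for SERPINA1. CFB with AXL shRNA ran from -1.43 to 1.1, and C3 in control shRNA against control from -0.34 to 1.42. The difference of effects ran from -0.83 to 2.68 for FGA, -2.72 to 0.18 for FGB and -1.64 to 0.24 for C3. The P number effect ran from -1.08 to 0.26 for FGB, -1.44 to 0.050 for FGG, -1.30 to 0.17 for LBP and -0.53 to 0.061 for SERPINA3. Paired, C3 with TP-0903 ran from -0.13 to 0.48 (-0.12 without control P17), CFB from -0.40 to 0.19 with AXL shRNA and -0.31 to 0.093 with TP-0903 (0.092 without control P4), SERPINA1 with TP-0903 from -1.13 to 0.20, and the difference of P effects of SERPINA3 from -0.43 to 0.98 (-0.42 without control shRNA P15). Over single members, other settings of the unpaired fit kept 280 results on their side of the threshold, put 44 past it, took 1 below it and turned 15. For the paired fit these were 158, 3, 8 and 5. With a library left out they were 263, 11, 3 and 26 unpaired and 202, 4, 16 and 10 paired.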
